A study of Hordeum vulgare with 18 samples.

Results

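Flag leaves of the barley (Hordeum vulgare) line 10_11 were compared at 14 days and at 7 days post anthesis. The comparison rests on 6 of the 18 libraries of the series, 3 of 10_11 at 14 d (replicates A, B and C) and 3 of 10_11 at 7 d (replicates 1, 2 and 3), which were chosen by line and day from the sample titles. The remaining libraries are 3 of 10_11 at 21 d and 3 each of the cultivar Karl at 7, 14 and 21 d. All plants, Karl included, grew in a glasshouse in randomized blocks and received general fertilizer and potassium nitrate until anthesis. Each library pooled 10 or more flag leaves from shoots tagged at anthesis. 10_11 is known to be near-isogenic to Karl, so the results describe 1 line and not a sample of genotypes. The MARS-seq libraries count tags from the 3′ ends of transcripts.

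The flag leaf is the uppermost leaf of a cereal shoot and a main source of sugar and nitrogen for the growing grain. After anthesis it turns from a photosynthetic organ to a senescing one, in which chloroplast protein is broken down and its nitrogen is exported to the grain. The transcripts of photosynthesis are among the most abundant of a young leaf and are known to decline as it senesces. The deposited table gives genes by identifier only, and 0 of the identifiers matched the reference gene table. The leaf was therefore not checked by marker genes, and genes were not assigned to pathways.

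The 10_11 libraries held 1864058 to 3231258 counts at 14 d and 353982 to 941922 counts at 7 d. Of the 13626 genes in the table, 13194 to 13469 had a count in a 14 d library and 10778 to 12459 in a 7 d library. Day and depth thus move together, and so does the naming of the libraries, since the 7 d titles use numbers and the 14 d titles use letters. A difference between the days cannot be told apart from these differences. 1 library stood apart from its label. On a scale from Karl (0) to 10_11 (1), built from 67 genes with a line difference in the 7 d and 21 d libraries, the 14 d libraries of 10_11 lay at 0.982, 0.982 and, for the library labelled replicate C, 0.0670, while those of Karl lay at -0.0610 to -0.00113. Across the 9973 genes tested, which are not independent of each other, replicate C had a Spearman rho of 0.910 to 0.924 with replicates A and B and of 0.907 to 0.951 with the Karl 14 d libraries. Replicates A and B had a rho of 0.953 with each other and of 0.841 to 0.916 with the Karl 14 d libraries. Fold changes of named genes, the share of abundant transcripts and the score are given with and without the library labelled replicate C. So are most counts of called genes, while that of neighbouring pairs is given only with replicate C. Group means and median levels at 14 d include it.

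In 10_11 at 14 d, 116 genes were higher (1.16% of those tested) and 126 lower (1.26%) than at 7 d, together 2.43% of the 9973 genes tested (edgeR quasi-likelihood test, adjusted p under 0.05 over all genes tested). Of the 116, 111 were at least 2-fold and 56 at least 4-fold higher at 14 d. Of the 126, 102 were at least 2-fold and 40 at least 4-fold lower. The median log2 fold change was 1.92 for the genes that rose and -1.41 for those that fell, against 0.03 over all genes tested, with a median standard error of 0.38. The genes that rose had a median level of 51.6 CPM at 14 d and 14.1 CPM at 7 d, where CPM are counts scaled to a common library size by TMM. Those that fell had a median level of 58.9 CPM at 14 d and 171 CPM at 7 d.

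Without the library labelled replicate C, 35 genes rose (0.337%) and 32 fell (0.308%), together 0.645% of 10382 tested, and all 67 changed at least 2-fold. Of these 67 genes, 65 were also called with all 6 libraries, 35 higher and 30 lower at 14 d. The 177 genes called only when replicate C was present all kept their sign without it, and all had an unadjusted p under 0.05. Their median adjusted p was 0.128, and their median absolute log2 fold change was 1.28 without replicate C and 1.45 with it. The remaining libraries of the comparison had also helped to choose these genes. Kept signs and low unadjusted p-values could thus hardly come out otherwise, and nothing is read from them. Other single libraries also changed the number of calls. From 242 it went down to 55 when 7 d replicate 1 was left out, to 47 without 7 d replicate 2, to 111 without 7 d replicate 3, to 188 without 14 d replicate A and to 98 without 14 d replicate B. With replicate C already left out, the 67 became 21, 16 or 42 when 7 d replicate 1, 2 or 3 was also removed, and 12 or 8 when 14 d replicate A or B was.

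The number of genes called without replicate C differed with the libraries in the fit. With the libraries of the comparison alone, 302 of 8376 genes tested were called from 6 libraries and 261 of 7414 from 5, and 61 of the 67 genes above were among the 261. The common dispersion, a measure of the spread between libraries, was 0.0695 over all 18 libraries and 0.0682 without replicate C, and it was 0.0496 over the 6 libraries of the comparison and 0.0378 over the 5. Each value covers the genes that passed the filter in its own libraries, in this order 9973, 10382, 8376 and 7414. The values thus differ in genes as well as in libraries. DESeq2 called 345 genes with all libraries and 166 without replicate C. In each of these fits both directions were represented, with 125 genes higher and 136 lower at 14 d among the 261.

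**Figure D1:**
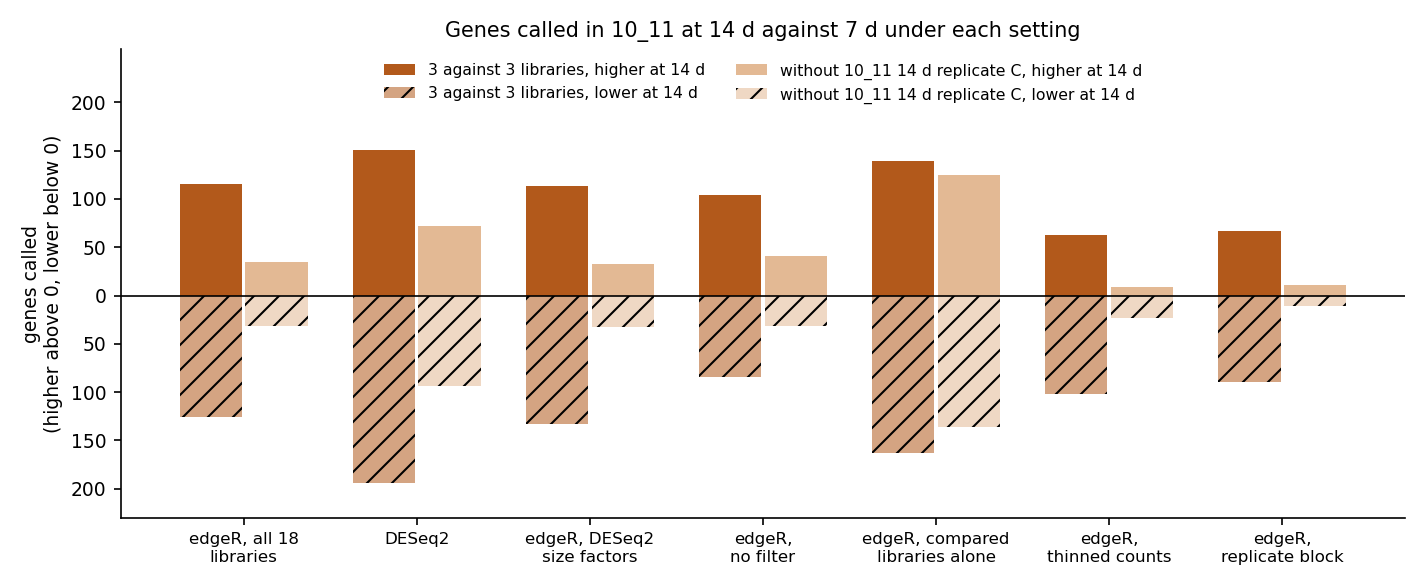
Number of genes called in 10_11 at 14 d against 7 d (vertical axis; higher at 14 d above 0, lower below 0) under each setting of the analysis (horizontal axis), with all 6 libraries (left bars) and without the library labelled 14 d replicate C (right, paler bars); hatching marks genes lower at 14 d. In the first setting the pairs of bars stand for 242 and 67 genes, and with the compared libraries alone for 302 and 261.

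Replicate C was the most distant of the 14 d libraries from the 7 d mean in 146 of the 242 called genes, replicate B in 74 and replicate A in 22. In the direction of the call, the median distance from the 7 d mean was 1.81 in replicate C, 1.57 in replicate B and 1.39 in replicate A on the log2 CPM scale (prior count 2). Among the 65 genes called with and without replicate C, these medians were 2.26, 2.09 and 2.03. Over all genes tested, called or not, the 14 d and 7 d libraries did not overlap in 24.4%. The same 6 libraries chose the called genes, of which 231 of 242 had no overlap, so nothing is read from that count. Replicate C also took part in the choice of both the 242 and the 65 genes. That choice can favour genes in which replicate C lies far out, and the distances over all genes tested were not determined.

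Of the genes called in both fits, 55 reached 20 CPM in the higher group without overlap between the groups, 29 higher and 26 lower at 14 d. The 2 of each direction with the largest change are described by identifier. HORVU2Hr1G039390, on chromosome 2H, had 89.4, 12.4 and 7.48 CPM in 14 d replicates A, B and C, against 2.02, 1.27 and 0 CPM in 7 d replicates 1, 2 and 3. Replicate A was far above the other 14 d libraries, and all 14 d libraries were above all 7 d libraries. The 7 d libraries held 2 counts in all, so the ratio of the days was 34.6 with a 95% counting interval of 9.51 to 287 (exact binomial), and 48.8 with an interval of 13.4 to 404 without replicate C. The edgeR adjusted p was 0.0483 with all libraries and 0.022 without replicate C. The fitted log2 fold change was 4.80 (SE 1.24). This call was lost without 14 d replicate A (log2 fold change 2.87, edgeR adjusted p = 0.119), without 7 d replicate 1, 2 or 3 (0.145, 0.214 and 0.126) and with the 6 libraries alone (0.102).

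HORVU0Hr1G008950, which has no chromosome in its identifier, had 93.7, 106 and 54.7 CPM in 14 d replicates A, B and C, against 18.2, 3.80 and 3.43 CPM in the 7 d replicates. The groups did not overlap, as the choice of the gene required, with replicate C the lowest at 14 d and replicate 1 the highest at 7 d. Its log2 fold change was 3.32 (SE 0.67, edgeR adjusted p = 0.0157), and 3.56 without replicate C (SE 0.68, edgeR adjusted p = 0.0215). The call was lost without 7 d replicate 2 or 3 (edgeR adjusted p = 0.11 and 0.0572), and the log2 fold change was 4.49 without 7 d replicate 1 and 2.53 with counts thinned to the smallest library. At 21 d the gene averaged 385 ± 191 CPM in 10_11 (SD, n = 3).

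HORVU3Hr1G055260, on chromosome 3H, had 44.9, 63.7 and 24.4 CPM in 14 d replicates A, B and C, against 1293, 1308 and 103 CPM in 7 d replicates 1, 2 and 3. The 7 d libraries were uneven, with replicate 3 far below the other 2 but still above every 14 d library. Its log2 fold change was -4.36 (SE 0.69, edgeR adjusted p = 0.00273) and -4.07 without replicate C (SE 0.79, edgeR adjusted p = 0.022). HORVU0Hr1G028230, also without a chromosome, had 2.71, 7.02 and 1.97 CPM at 14 d, against 113, 77.3 and 30.9 CPM at 7 d. Its log2 fold change was -4.36 (SE 0.64, edgeR adjusted p = 0.00144), -4.06 without replicate C (SE 0.72, edgeR adjusted p = 0.0116) and -4.96 without 14 d replicate B. Both genes that fell were called with any 1 of the 6 libraries left out. In the 21 d libraries of 10_11, HORVU3Hr1G055260 had a mean of 12.5 ± 8.11 CPM and HORVU0Hr1G028230 one of 18.5 ± 7.49 CPM (SD, n = 3).

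**Figure D2:**
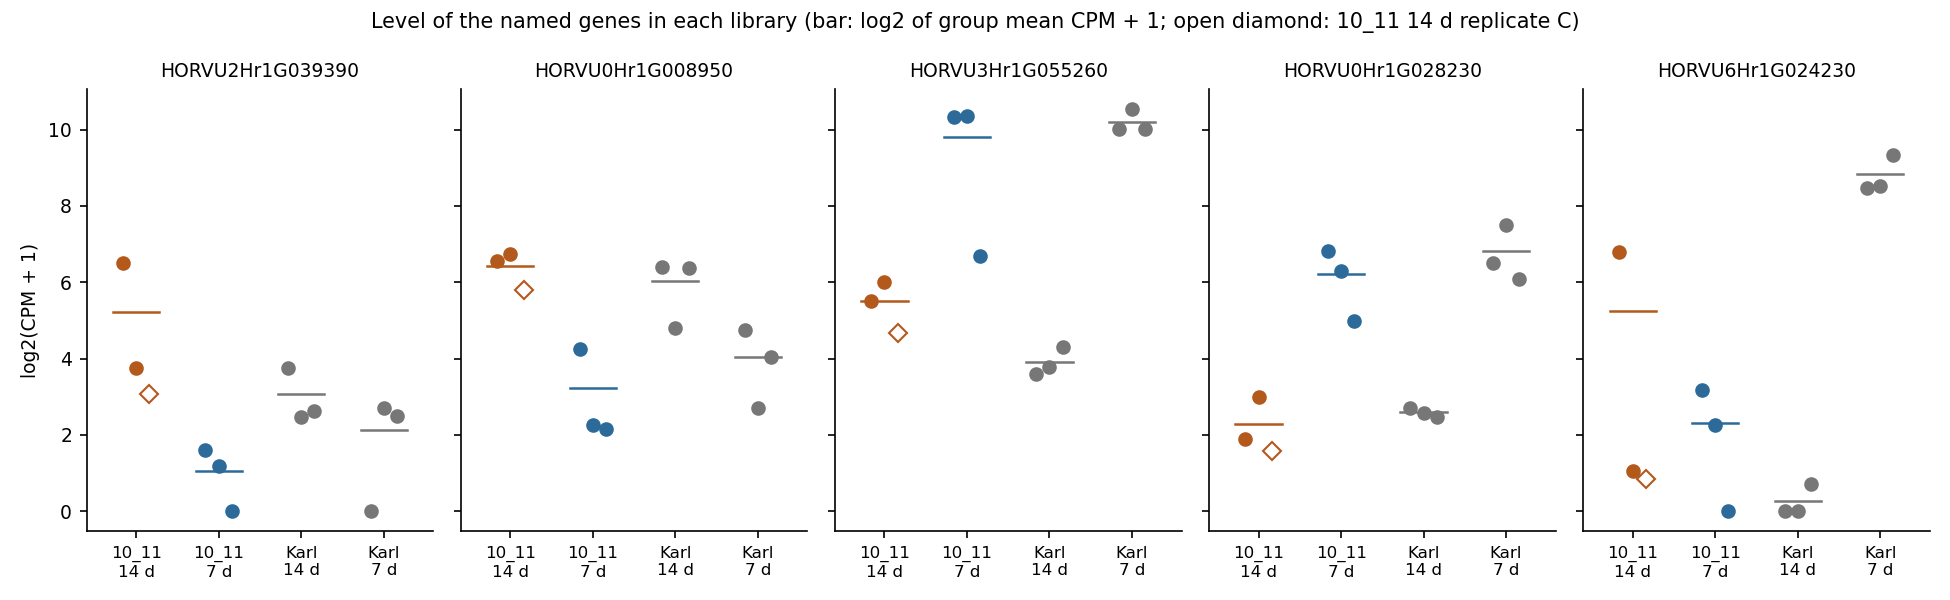
Level of each described gene as log2(CPM + 1) (vertical axis) in every library of 10_11 and Karl at 14 d and 7 d (horizontal axis), with the group mean as a bar and the library labelled 10_11 14 d replicate C as an open diamond. In the first 4 panels the 10_11 libraries of 14 d and 7 d do not overlap, as the choice of these genes required. In the last panel replicate A alone of 10_11 at 14 d, at 109.6 CPM, lies above the 7 d libraries.

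Genes were grouped in 4 bands by their mean level over all 18 libraries. In the band of the 100 most abundant, 15 fell and 1 rose, or 16% called beside 2.43% of all genes tested, and the median log2 fold change was -0.42. Among the next 400 genes 18 fell and 11 rose, among the next 1500 35 fell and 28 rose, and among the rest 58 fell and 76 rose, with medians of -0.08, 0.01 and 0.04. The median standard error was 0.23 to 0.25 in the 3 more abundant bands and 0.41 in the last, so the bands differ in what the test can call. Without replicate C, where 0.645% of all genes tested were called, 2 of the 100 fell and 1 rose, with a median of -0.39. The calls in the other bands were then 3 lower and 3 higher, 10 lower and 6 higher, and 16 lower and 25 higher. The bands hold genes tested with all libraries. Of these, 9972 were also tested without replicate C, with 35 called higher and 31 lower.

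The 100 most abundant genes took 39.9%, 41.2% and 39.0% of the counts of 14 d replicates A, B and C, against 50.7%, 47.7% and 49.8% in 7 d replicates 1, 2 and 3. The mean share was thus 40.1% ± 1.14 for the 14 d libraries and 49.4% ± 1.55 for the 7 d libraries (SD, n = 3 each). The groups did not overlap and differed by -9.32 percentage points (two-sided exact permutation test, p = 0.1, which is as low as 3 libraries against 3 can reach). The difference was -8.78 percentage points without replicate C. Each of the other bands took a larger share in every 14 d library than in any 7 d library. The bands divide nearly all counts of a library, so a smaller share of 1 band must go with larger shares elsewhere. The larger shares are therefore not a separate result. The least abundant band took 16.5% to 17.5% at 14 d and 12.9% to 14.0% at 7 d.

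**Figure D3:**
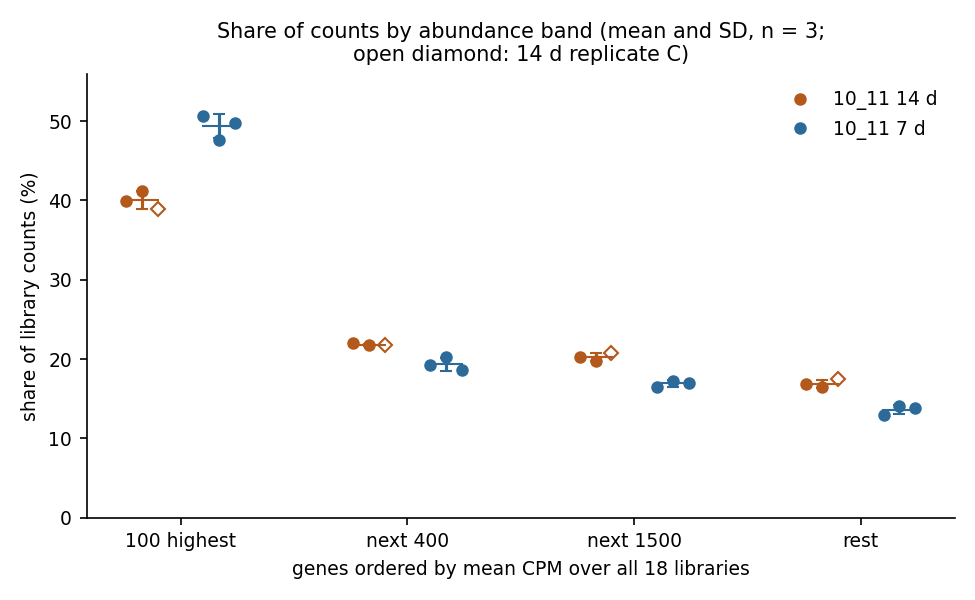
Share of each library's counts in percent (vertical axis) taken by 4 bands of genes ordered by mean level over all 18 libraries (horizontal axis), for 10_11 at 14 d and 7 d, with points for libraries and the mean and SD of each group. The 100 highest genes lie at 39.0% to 41.2% at 14 d and 47.7% to 50.7% at 7 d, and the open diamond is the library labelled 14 d replicate C.

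Called genes were spread over all chromosomes, which were read from the identifiers. Beside 2.43% of all genes tested, the share called was 3.40% on chromosome 2H (27 higher and 23 lower at 14 d), 3.03% on 5H (20 and 28), 2.44% on 6H (14 and 14), 2.18% on 3H (16 and 17), 2.00% on 4H (15 and 11), 1.76% on 7H (10 and 15) and 1.71% on 1H (11 and 11). Among unplaced genes it was 4.22% (3 and 7). Median log2 fold changes lay between 0.01 and 0.06 on the 7 chromosomes, against 0.03 over all genes tested. Without replicate C, where 0.645% of all genes tested were called, the calls were 10 higher and 6 lower on 2H, 5 and 7 on 5H, 6 and 3 on 3H, 5 and 5 on 7H, 2 and 4 on 1H, 2 and 2 on 4H, 3 and 1 on 6H, and 2 and 3 among unplaced genes. These calls too cover only the 9972 genes tested in both fits.

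Segments with line differences in earlier results on these data were described by the serial number in the identifier. On chromosome 6H from 015000 up to 038000, 5 of 270 genes tested rose and 7 fell (4.44%), with a median log2 fold change of 0.08, and without replicate C 1 of the 270 was called. In the next segment of 6H, which begins at 038000, 6 of 224 were called (2.68%), and 2 without replicate C. On 6H from 080000 4 of 221 were called (1.81%), and 1 without replicate C. On 2H below 015000 it was 3 of 126 (2.38%), and 1 without replicate C. On 1H from 075000 6 of 335 were called (1.79%), and 3 without replicate C. Over all genes tested the shares were 2.43% with all libraries and 0.645% without replicate C, the library that lies with Karl at genes with a line difference.

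By median level, the genes called in 10_11 were further from 7 d at 21 d than at 14 d. The 116 genes that rose had a median of 14.1 CPM at 7 d, 51.6 CPM at 14 d and 58.7 CPM at 21 d, and the 126 that fell had 171, 58.9 and 26.6 CPM. Of the 116, 85 lay beyond their 14 d level at 21 d, 30 lay between the 2 earlier levels and 1 lay back past 7 d. Of the 126, 104 lay beyond and 22 between. For the 35 genes that rose in both fits the medians were 11.9, 48.3 and 74.4 CPM, and for the 30 that fell 160, 25.6 and 10.5 CPM. The 7 d and 14 d libraries chose these genes, and the 21 d libraries entered only the filter, the scaling and the shared spread.

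The same interval in Karl was set beside that of 10_11 to see which changes the lines share. The 2 comparisons have no library in common, but in Karl too the depth and the naming of the libraries move with the day. The Karl libraries held 599513 to 947762 counts at 7 d, with numbered titles, and 1381441 to 2088696 counts at 14 d, with lettered titles. Changes that the lines share therefore cannot be told apart from these differences. In Karl 557 genes rose (5.59%) and 504 fell (5.05%), together 10.6% of those tested. Of the 116 genes that rose in 10_11, 72 also rose in Karl, which is 62.1% of the 10_11 list and 12.9% of the Karl list. Of the 126 that fell in 10_11, 91 also fell in Karl, 72.2% of the 10_11 list and 18.1% of the Karl list. Without replicate C, 23 of 35 and 26 of 32 genes called in 10_11 were called in the same direction in Karl. The genes that rose in 10_11 had a median log2 fold change of 1.92 in 10_11 and 1.32 in Karl, and those that fell had -1.41 in 10_11 and -1.29 in Karl.

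Genes chosen by their change in Karl had smaller median changes in 10_11. The 557 genes that rose in Karl had a median log2 fold change of 0.79 in 10_11 and 1.72 in Karl, and the 504 that fell had -0.68 in 10_11 and -1.20 in Karl. Without replicate C the medians for the 598 genes then called higher in Karl (5.76%) were 0.58 in 10_11 and 1.78 in Karl, and for the 510 called lower (4.91%) -0.62 in 10_11 and -1.23 in Karl. The Karl libraries chose these genes, which can enlarge the Karl medians, as the choice of genes called in 10_11 can enlarge the medians of 10_11.

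**Figure D4:**
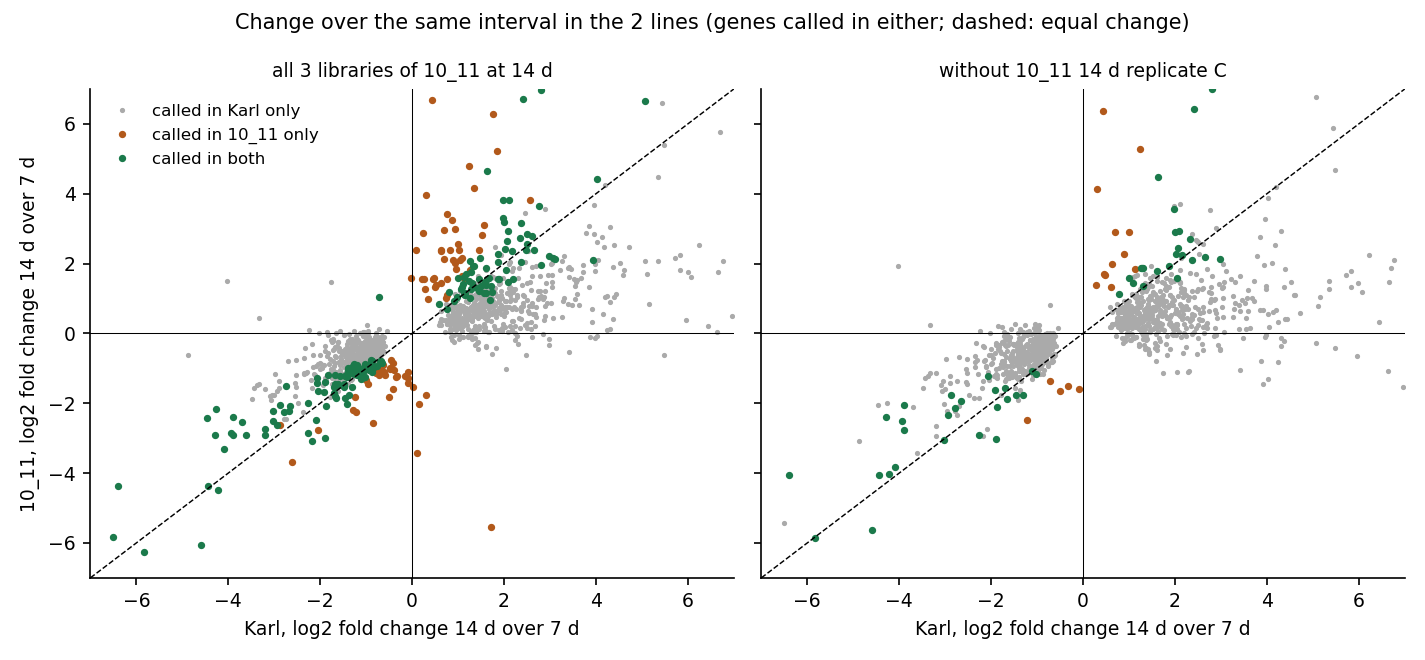
Log2 fold change at 14 d over 7 d in 10_11 (vertical axis) against Karl (horizontal axis, from the fit with all libraries) for genes called in either line, with all libraries of 10_11 (left) and without the library labelled 14 d replicate C (right). Axes end at 7 and leave out 9 genes in each panel; most genes called in Karl lie nearer to 0 on the 10_11 axis than the dashed line of equal change.

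A score per library, the mean log2 CPM of the genes that rose in Karl minus that of the genes that fell, placed the 10_11 libraries on an axis whose genes were called from Karl libraries, although all libraries enter the filter and the spread of that fit. The 7 d replicates 1, 2 and 3 scored -3.00, -2.95 and -3.08. Replicates A, B and C scored -1.68, -1.55 and -0.71 at 14 d, and -0.08, 0.65 and 0.10 at 21 d. The 10_11 libraries of the 3 days did not overlap, and the library labelled replicate C lay between the other 14 d libraries and those of 21 d. The Karl 14 d libraries A, B and C, which helped to choose the genes, scored 0.14, -0.45 and 0.07. Replicate C of 10_11 thus also lay between replicates A and B of 10_11 and the Karl 14 d libraries. Mean scores of 10_11 were -3.01 ± 0.07, -1.32 ± 0.53 and 0.22 ± 0.38 on days 7, 14 and 21 (SD, 3 libraries each). The difference of 14 d from 7 d was 1.70, and it was 1.34 without replicate C, with the genes chosen again.

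**Figure D5:**
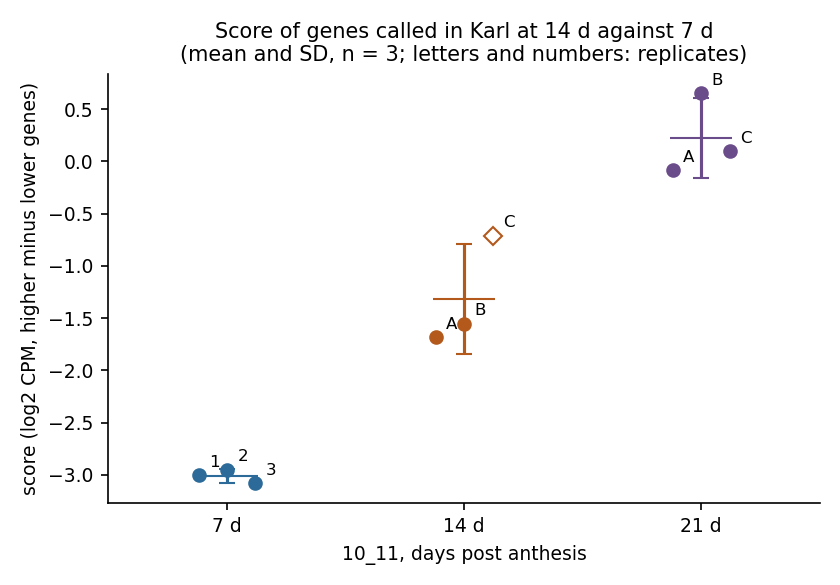
Score of each 10_11 library (vertical axis, in log2 CPM) at 7, 14 and 21 d (horizontal axis), with the mean and SD of each day. The 14 d libraries lie at -1.68, -1.55 and -0.71, the last being the library labelled replicate C, and those of 7 d lie between -3.08 and -2.95.

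Whether a change differed between the lines was tested directly. The difference of the changes, 10_11 minus Karl, was called by edgeR for 1 of 9973 genes tested (0.01%) with all libraries. Without replicate C it was called for 1 of 10382 (0.00963%). An unadjusted p under 0.05 was reached by 571 of the 9973 and 746 of the 10382 genes (edgeR). A share of 0.05 is expected there with no difference at all. DESeq2 called 3 genes with all libraries and 6 without replicate C, of which 0 and 1 were also called by edgeR. The smaller medians in 10_11 are thus a description, and a gene called in 1 line alone is not shown to differ. The gene called by edgeR in both fits was HORVU6Hr1G024230, on chromosome 6H. By its serial number it lies in the segment of 6H that begins at 015000, 1 of those described above for line differences. It had 109.6, 1.08 and 0.787 CPM in 10_11 at 14 d replicates A, B and C, against 8.07, 3.80 and 0 CPM at 7 d. In Karl it had 0, 0 and 0.646 CPM at 14 d, against 353, 369 and 642 CPM at 7 d. The 10_11 days overlapped and the gene was not called in 10_11 itself (edgeR adjusted p = 0.287, and 0.182 without replicate C), while the Karl days were far apart. The Karl 14 d libraries held 1 count, a ratio of 0.000372 to 7 d with a 95% counting interval of 9.41e-06 to 0.00208 (exact binomial). At 21 d the gene averaged 3.24 CPM in 10_11 and 0.393 CPM in Karl. The difference had an edgeR adjusted p of 0.042 with all libraries and 0.00118 without replicate C. It was not called without 10_11 14 d replicate A, which alone was high (edgeR adjusted p = 0.611; not called either with replicate C also left out), nor with any of the 3 7 d libraries of 10_11 or the 6 Karl libraries left out (edgeR adjusted p 0.0786 to 0.353), with the compared libraries alone (0.123) or with a replicate block (0.0715). With replicate C already left out, it was called with any 1 of these 9 libraries left out, with the compared libraries alone and with the block.

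The authors' deposited table marks 239 genes as passing for this pair of groups, 1.75% of its 13626 genes. All of them have an absolute log2 fold change of at least 1.00 and an adjusted p of at most 0.0498 in the authors' deposited table, whose fold change runs 7 d over 14 d. By the sign of that value, 119 were higher and 120 lower at 14 d. Of the 239, 185 were called by edgeR with all libraries and 65 without replicate C, with no gene in the opposite direction among the 185. Both sets of calls rest on the same counts, so shared calls and directions are not independent evidence. The 4 genes of this comparison described by identifier all pass in the authors' deposited table, with log2 fold changes of 7 d over 14 d of -4.84 for HORVU2Hr1G039390, -3.31 for HORVU0Hr1G008950, 4.35 for HORVU3Hr1G055260 and 4.32 for HORVU0Hr1G028230. HORVU6Hr1G024230 does not pass there.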

How the data were processed

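RNA of barley flag leaves was measured by MARS-seq. Sample titles gave the groups. The authors deposited 1 table. Its raw columns hold counts per gene and library, per the file headers. The deposited normalized counts and base mean are a signal scaled by the authors, and the deposited table also holds regularized log2 values, log2 fold changes, and raw and adjusted p-values for 15 group pairs. The submitters' processing notes name the tools DESeq2, HTSeq, cutadapt, bcl2fastq and STAR (2.4.2a), without their roles. Not given in the sources used here were the build, the annotation, the strand setting and how molecular identifiers were treated, so intervals cover counting error only and near-identical gene copies are uncertain.

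The deposited counts went unchanged into edgeR 4.0.16 under R 4.3.3 (filterByExpr by group, TMM, glmQLFit and glmQLFTest, two-sided, Benjamini-Hochberg adjustment). All 18 libraries entered with 1 mean for each line and day, or 17 when replicate C of 10_11 at 14 d was left out. Filter and scaling were then determined again, which admits more genes. Standard errors were approximated by dividing the absolute log2 fold change by the root of F. The deposited libraries of a group are separate pools of leaves, whether they share pots is not stated, and p-values measure the spread between these pools. Named genes were called in both fits in the same direction, reached 20 CPM in the higher group without overlap between groups, and had the largest log2 fold changes; 2 per direction are printed because identifiers have no names. Lists by function needed names and were not applied. Genes called by the test of the difference between lines were also named. The scripts were tested on simulated counts. The alternatives were DESeq2 1.42.0, its size factors, no filter, at least 2-fold, the compared libraries alone, thinned counts, leaving out each library and a replicate block. Members, lists and segments were chosen with earlier results of these data known.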

Additional observations from a re-analysis of the deposited data

Results flagged for a closer look

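A difference between the lines marks HORVU6Hr1G024230. Its log2 change at 14 d over 7 d in 10_11 exceeded that in Karl by 13.91 (SE 2.16, edgeR adjusted p = 0.042), and by 14.46 when replicate C of 10_11 at 14 d was left out (SE 1.71, edgeR adjusted p = 0.00118). Most of this is the fall in Karl, at -10.81, while the change in 10_11 was 3.10 and not called (edgeR adjusted p = 0.287). The 7 d libraries held 7 counts in 10_11 and 874 in Karl, so 10_11 had little room to fall. The fitted size depends on the prior count, since the Karl 14 d libraries held 1 count. Without 10_11 14 d replicate A, which held 364 of the 368 counts of its group, the difference was 8.60 (edgeR adjusted p = 0.611). DESeq2 gave no adjusted p for this gene with all libraries.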

How the results depend on the processing

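The count of 242 genes called in 10_11 at 14 d against 7 d was 156 with a replicate block and 47 to 188 with single libraries left out. The count of 67 without replicate C was 166 with DESeq2, 261 with the compared libraries alone, 32 with thinned counts (9 higher and 23 lower at 14 d), 22 with a replicate block and 8 to 42 with 1 further library left out; where 1 library of a group was left, it was assumed to vary like the other groups. On the 9973 genes that pass the filter over all 18 libraries, an alternative added after the data were seen, it was 70. With single libraries left out, 402 of 10346 to 807 of 10377 genes had an unadjusted p under 0.05 for the difference between the lines (edgeR). A share of 0.05 is expected there with no difference at all. The count of 1 gene called for the difference between the lines was 3 with DESeq2 and 0 with the compared libraries alone. It was 0 with a replicate block and 0 to 1 with single libraries left out (edgeR). Without replicate C it was 6 with DESeq2, 18 with the compared libraries alone and 0 to 1 with 1 further library left out. Of the 18 genes, 3 had a positive and 15 a negative difference, 10_11 minus Karl. The causes of the shifts in these counts were not tested. Other size factors, no filter and the 2-fold threshold left these counts within 1.5 times. The score and the share of the 100 most abundant genes kept their direction in every alternative run, as did all named genes. HORVU3Hr1G055260 and HORVU0Hr1G028230 were called in all 12 alternatives each, HORVU0Hr1G008950 in 10 of 12, HORVU2Hr1G039390 in 5 of 11 and the difference of HORVU6Hr1G024230 in 5 of 17.

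Replicate names are not shared between the 7 d and 14 d titles, so the block could not pair these days. Between the lines, same-named libraries had correlations of their deviations of -0.11 to 0.11 at 7 d, 0.01 to 0.25 at 14 d and -0.16 to 0.33 at 21 d. Of 3 pairs each, 0, 2 and 2 correlated best with their own name. So few pairs neither establish nor exclude pairing, and the labels do not tie a name to a block of plants. Under the block the log2 fold change of HORVU2Hr1G039390 was 4.52 (edgeR adjusted p = 0.0799). The 7 d depth limits what can be seen of weak genes. With thinned counts 5392 genes were tested and 165 called, 63 higher and 102 lower at 14 d.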

Other observations

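Along the identifier order, 14 of 9729 pairs of neighbouring tested genes on 1 chromosome were both called in the same direction in 10_11, 7 pairs higher and 7 lower at 14 d, and 4 pairs were called in opposite directions. The same-direction pairs hold 26 of the 232 called genes that have a chromosome. Over all genes tested, 2.43% were called. Neighbours can be near-identical copies that share reads, which was not tested. This count was made after the data were seen, and only with replicate C in the fit. The number of pairs to be met without regard to position was not determined, so nothing is read from the count.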
